A study of Mus musculus with 2 samples.

Results

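The genes described here serve the class II route of antigen presentation: H2-Aa, H2-Ab1, H2-Eb1, Cd74, H2-DMa, H2-DMb1, H2-DMb2, H2-Oa, H2-Ob and Ciita. They were chosen by gene symbol and make up 10 of the 32285 genes in the count matrix. All 10 symbols matched 1 row each. Lung cells of zbtb46-cre x rosa26-yfp mice (strain label zbtb46-yfp) were sorted as live CD45.2 YFP+ cells and sequenced as single cells with a 10x Genomics 3′ kit, which counts unique molecular identifiers (UMIs) and so approximates mRNA molecules. The 2 adult pools came from mice of 8 weeks and the 2 neonatal pools from mice of 7 days, with at least 5 mice in a pool and no other treatment named. Cre is driven by Zbtb46 in these mice, so YFP marks every cell with a history of that gene, and not dendritic cells (DCs) alone. The pools of 1 age were hashtagged and loaded together, so age and loading channel cannot be told apart. The p-values for age below rest on 2 pools per age. The tests over all genes estimate the spread of each gene with help from the others. Those that compare cell classes set classes of the same pools against each other.

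On GRCm38 (GENCODE M21), 8 of the 10 genes lie in one interval of chromosome 17. From its first to its last base they are H2-Oa (34092340-34095234), H2-DMa (34119541-34139101), H2-DMb2 (34143307-34151555), H2-DMb1 (34153072-34160230), H2-Ob (34238903-34254414), H2-Ab1 (34257689-34269419), H2-Aa (34282744-34287823) and H2-Eb1 (34305867-34316674). H2-Aa is on the minus strand and the others are on the plus strand. Ciita lies on chromosome 16 (10480059-10528418, plus strand) and Cd74 on chromosome 18 (60803848-60812652, plus strand). Part of H2-Eb1 is overlapped on the other strand by Gm20513, part of H2-DMa by Brd2 and part of Ciita by Dexi. Whether counting used strand is not given in the sources used here, and the rows of Gm20513 and Dexi held 57 and 86 UMIs in cDC1.

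MHC class II molecules are paired alpha and beta chains that show peptides from endosomes to CD4 T cells. H2-Aa and H2-Ab1 encode the I-A chains and H2-Eb1 the beta chain of I-E. Cd74, the invariant chain, fills the groove of new molecules and guides them to endosomes, H2-DM (H2-DMa with H2-DMb1 or H2-DMb2) exchanges its last fragment for peptides, and H2-DO (H2-Oa with H2-Ob) inhibits H2-DM. Ciita is the transactivator of class II genes, and it acts through factors bound at short promoter boxes called X and Y. DCs that mature are known to stop Ciita transcription while the class II protein already made is held at the surface.

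The shared promoter boxes are shown because the genes below are set side by side as targets of 1 transactivator. Promoters were read from RefSeq on GRCm38.p6, 250 bases before to 50 after each start, and 6 of the 8 genes of the interval had an entry with a Y box. Capitals mark TGATTGG (Y box), an X box form (AAC, any 3 bases in lower case, then TGATG) and TGACGTCA (a CRE). All sequences run 5′ to 3′ on the strand of the gene.
H2-Aa, chr17:34287855-34287923, minus strand: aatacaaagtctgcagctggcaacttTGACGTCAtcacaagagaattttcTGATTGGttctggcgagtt
H2-Eb1, chr17:34305756-34305824, plus strand: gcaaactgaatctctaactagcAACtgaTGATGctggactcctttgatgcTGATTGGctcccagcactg
H2-DMb2, chr17:34145107-34145175, plus strand: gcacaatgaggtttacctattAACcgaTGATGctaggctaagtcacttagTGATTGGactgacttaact
H2-Oa, chr17:34092284-34092340, plus strand: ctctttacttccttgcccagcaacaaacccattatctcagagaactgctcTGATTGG
H2-Ob, chr17:34238796-34238864, plus strand: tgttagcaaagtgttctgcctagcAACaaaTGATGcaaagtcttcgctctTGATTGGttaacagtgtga

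The Y box began at -50 from the RefSeq start in H2-Aa, -61 in H2-Eb1, -92 in H2-DMb2, -45 in H2-Oa and -59 in H2-Ob. H2-DMb1 held the same pair of boxes as H2-DMb2, with its Y box at -63, but these bases lie within an annotated 5′ UTR exon of a GENCODE model that starts further upstream and are not printed. The X form stood before the Y box with 17 bases between them in H2-Eb1, 18 in H2-DMb1 and H2-DMb2, and 15 in H2-Ob. These letters were chosen after the promoters had been read, so their presence is a description. Across all 32851 promoters of the table, the Y letters occurred on either strand (as TGATTGG or CCAATCA) in 7.82%, the X letters, read on either strand, in 0.615% and the CRE letters, which read alike on both strands, in 1.79%. X followed by Y on the strand of the gene, 10 to 30 bases apart, occurred in 5 promoters in all, 0.0152%, of which 4 were these and the other was that of 1700048F04Rik on chromosome 5. Both RefSeq windows of H2-DMa held none of the 3 motifs as spelled. The promoters of H2-Ab1, Cd74 and Ciita are not described here, and H2-Ab1 and Ciita had no entry among the promoters read.

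After filtering, 2030 and 1854 adult and 4412 and 4444 neonatal cells remained of 14710 barcodes, with median depths of 3165 and 3052 UMIs in the adult pools and 3721.5 and 3559.5 in the neonatal pools. Between the ages 14 barcode sequences were shared, and none within an age. The labels name the cells DCs, but the markers showed a mixture in which neutrophils, monocytes, T cells and NK cells were present beside DCs. Clusters were made without class II genes and named "X-like" from marker lists, and "cDC1", "cDC2", "mature DC" and the other names below stand for such X-like clusters. cDC1 are the conventional DCs that cross-present to CD8 T cells, cDC2 those that mainly present to CD4 T cells, and mature DCs the Ccr7-expressing state of either. The classes held 318 and 233 adult against 816 and 754 neonatal cDC1, 148 and 122 against 362 and 238 cDC2, and 115 and 103 against 524 and 521 mature DCs. At this resolution cDC2 were 1 cluster (12) at both ages, whereas 82.9% of adult cDC1 lay in cluster 1 (led by Epcam and Cldn1) and 98.0% of neonatal cDC1 in cluster 0. In the sex check, cells with Y-linked but no Xist transcripts numbered 927 and 900 in the adult pools and 15 and 304 in the neonatal pools, so the adult pools were male and the neonatal pools mostly female, and sex cannot be told apart from age in the tests below. Set against the Y-linked cells of neonatal pool 2 alone, a ratio of sums with no test, adult Cd74 was higher by 0.67 in cDC1 (91 neonatal cells), 0.64 in cDC2 (21 cells) and 1.93 in mature DCs (33 cells) on the log2 scale. By the same measure Ciita was at -0.55 in cDC1, -0.41 in cDC2 and 0.85 in mature DCs, and H2-DMb2 at -0.0497 in cDC2.

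Levels below are CPM, the UMIs of a gene over all gene UMIs of its class in a pool on the usual fixed scale, with no scaling by transcript length, as fits 3′ counting. Comparisons between ages used edgeR's quasi-likelihood test on UMI sums per pool over all genes, and a gene was called at a Benjamini-Hochberg adjusted p under 0.05. Fold changes are log2 adult over neonatal, with standard errors (SE). The SE was computed as the size of the fold change over the square root of the test's F statistic. It need not match the p-value of the test.

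Among the classes with enough cells for a test, conventional DCs held by far the highest levels of the 4 abundant genes H2-Aa, H2-Ab1, H2-Eb1 and Cd74, which together supplied 7.10% and 7.32% of all UMIs in adult cDC2, against 4.59% and 4.56% in neonatal cDC2. In cDC1 they supplied 5.69% and 5.72% in adult pools and 4.05% and 4.02% in neonatal pools. Mature DCs came next of these classes, with 2.15% and 2.33% in the adult pools and 0.966% and 0.951% in the neonatal pools. Adult pools lay above neonatal pools without overlap in each of these 3 DC classes. Classical monocytes, which circulate in the blood and enter tissue, held 0.627% and 0.588% in adults, against 0.055% and 0.055% in neonates. Nonclassical monocytes, which crawl along vessel walls, held 0.378% and 0.484% in adults and 0.080% and 0.065% in neonates. Neutrophils, which make little class II and give the background here, held 0.056% and 0.053% in adult pools and 0.067% and 0.058% in neonatal pools. Both neonatal monocyte classes were thus near the neutrophil level, and both adult monocyte classes stood above it. The adult mean was 1.41 times the neonatal mean in cDC1, 1.58 times in cDC2, 2.33 times in mature DCs, 11.1 times in classical monocytes and 5.94 times in nonclassical monocytes. Over 4 pools the exact permutation test cannot give a two-sided p under 0.33, which is the value for each of these 5 classes.

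**Figure D1:**
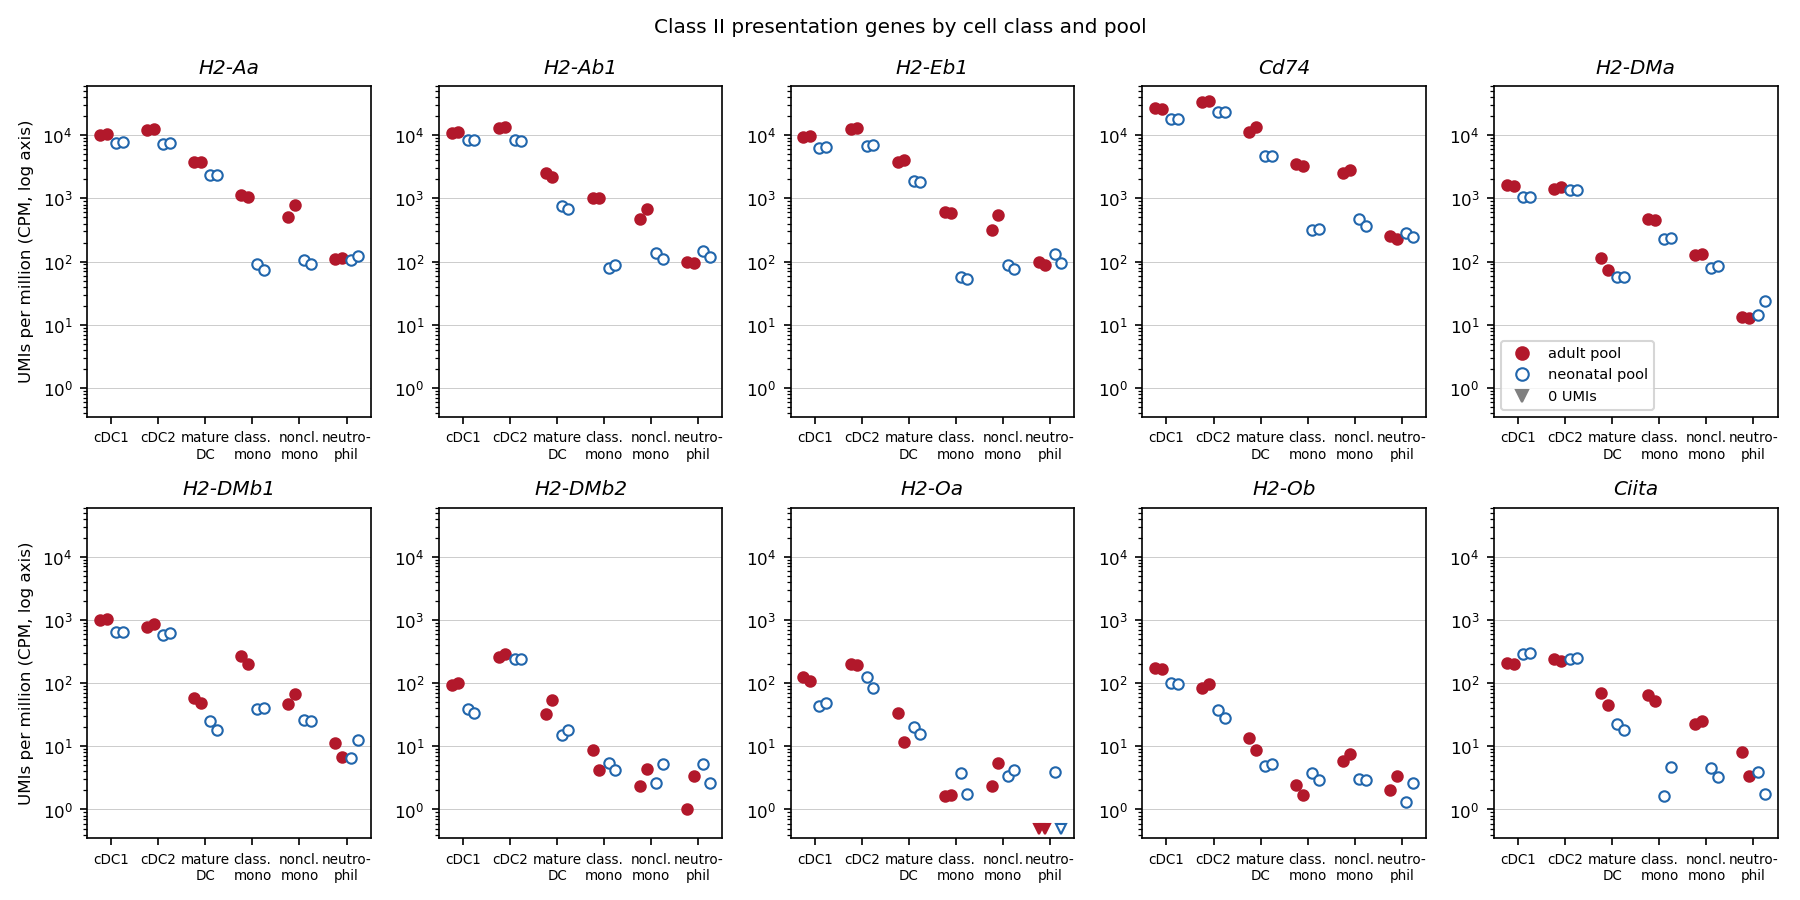
Level of each of the 10 genes (CPM, log axis) in 6 cell classes, with 1 point for each adult pool (filled) and each neonatal pool (open), triangles marking 0 UMIs. Adult points lie above neonatal points for 9 genes in cDC1 and cDC2, whereas Ciita is lower in adult cDC1 (204 and 199 against 292 and 297 CPM).

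In cDC1, all 10 genes differed between the ages: 9 were higher in adults and Ciita was lower, where 14.9% of all 9954 genes tested were called higher and 11.8% lower. The median log2 fold change of the 10 genes was 0.64 and that of all genes tested was 0.000255. Cd74 had 26659 and 26135 CPM in adult cDC1, against 18173 and 17843 CPM in neonatal cDC1 (log2 fold change 0.62, SE 0.03). H2-Eb1 had 9313 and 9540 CPM in adult and 6286 and 6395 CPM in neonatal cDC1 (0.64, SE 0.03). H2-Aa reached 10113 and 10373 CPM in adult and 7636 and 7716 CPM in neonatal cDC1 (0.48, SE 0.03), and H2-Ab1 differed by a similar 0.46 (SE 0.03). The pools of the 2 ages did not overlap for any of these 4 genes, and the highest edgeR adjusted p among them was 5.2e-12. The I-A chains kept a nearly fixed proportion, with 0.935 and 0.930 H2-Aa UMIs per H2-Ab1 UMI in adult cDC1 and 0.904 and 0.932 in neonatal cDC1.

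In cDC2, 9 of the 10 genes were called higher in adults and none lower, against 10.3% of 8247 genes called higher and 6.80% lower, and the median of the 10 was 0.76 with that of all genes at -0.00200. H2-Eb1 had 12383 and 12763 CPM in adult cDC2 and 6821 and 7011 CPM in neonatal cDC2 (log2 fold change 1.01, SE 0.03). H2-Aa had 12069 and 12433 CPM in adults, against 7341 and 7468 CPM in neonates (0.87, SE 0.03). Cd74 had 33584 and 34551 CPM in adults, against 23211 and 22959 CPM in neonates (0.71, SE 0.02), the highest level of any of the 10 genes in any class tested. The age difference of the chains was thus larger in cDC2 than in cDC1, and that difference was itself tested with the pool as a block. H2-Aa differed by -0.39 on the log2 scale (cDC1 minus cDC2, SE 0.03, edgeR adjusted p = 1.7e-20), H2-Eb1 by -0.37 and H2-Ab1 by -0.35. For Cd74 the same contrast was small, -0.09 (SE 0.03, edgeR adjusted p = 0.0353), and the call was lost without adult pool 2 (edgeR adjusted p = 0.42), neonatal pool 1 (0.617) or neonatal pool 2 (0.602). At the finer resolution of 2, chosen after seeing the data, the cDC2 cluster kept 89 and 75 adult and 299 and 188 neonatal cells, and an unnamed cluster with Clec10a and Cd209a (47 and 30 adult, 24 and 20 neonatal cells) and one led by Retnla and C1q genes and named interstitial macrophage (25 and 26 adult, 44 and 41 neonatal cells) stood apart. The same count of 9 genes was called in the cDC2 cluster there, with Cd74 at 0.87 and H2-DMa at 0.43.

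In all, 8 of the 10 genes had an age difference that differed between cDC1 and cDC2, against 7.38% of all genes; 5 did in cells thinned to 1500 UMIs.

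Averaged over the pools of both ages, cDC2 and cDC1 did not differ by test in H2-Aa (0.02, SE 0.09), H2-Ab1, H2-Eb1, H2-DMa or Ciita. That fit had no term for an age difference that differs between the classes, so it does not show equal levels at each age. In the CPM given above, H2-Eb1 was higher in every cDC2 pool than in every cDC1 pool of the same age. H2-Aa was higher in cDC2 than in cDC1 in adults and lower in neonates. Cd74 was higher in cDC2 by 0.28 (SE 0.03, edgeR adjusted p = 2.3e-05). In this comparison 28.0% of all genes were called. The largest difference between these classes was in the H2-DM beta chains described next.

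**Figure D2:**
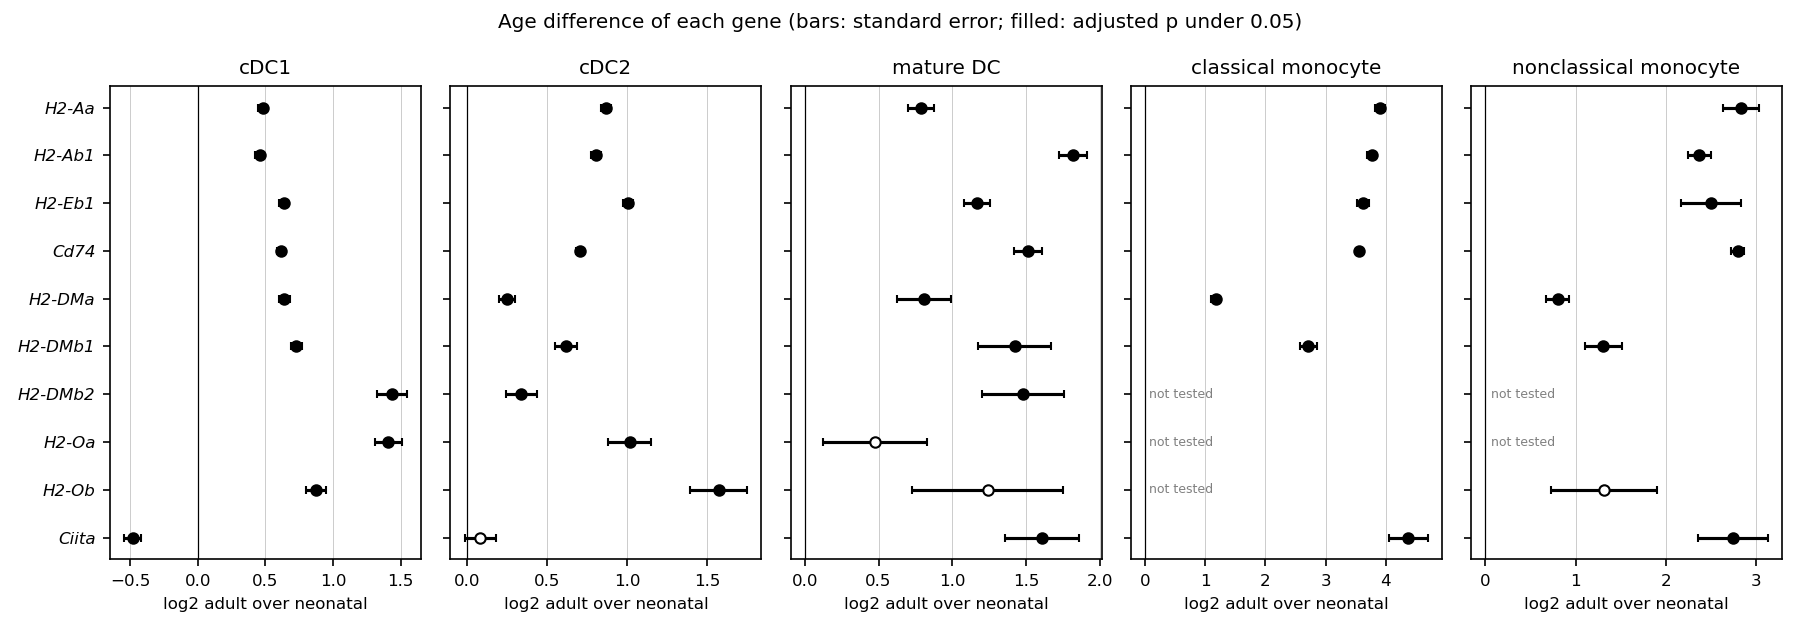
Age difference of each gene as log2 adult over neonatal (horizontal axis, a separate scale in each panel) in 5 cell classes, with bars for 1 standard error and filled points for an adjusted p under 0.05. Points of cDC1 and cDC2 lie between -0.48 and 1.57, and those of classical monocytes reach 4.37, for Ciita, which had few UMIs in neonates.

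The genes of H2-DM, the peptide exchange factor, were also higher in adult cDC1. H2-DMa had 1606 and 1547 CPM in adult cDC1 and 1050 and 1066 CPM in neonatal cDC1 (log2 fold change 0.64, SE 0.04), but only a small difference in cDC2, with 1427 and 1488 CPM in adults and 1376 and 1337 CPM in neonates (0.25, SE 0.05, edgeR adjusted p = 2.0e-04). In thinned cells the cDC2 difference was 0.15 and not called (edgeR adjusted p = 0.34). Against the Y-linked cells of neonatal pool 2 alone (21 cDC2), a ratio of sums with no test, it was 0.00841. The contrast of the 2 differences was 0.40 (cDC1 minus cDC2, SE 0.06, edgeR adjusted p = 1.9e-08). H2-DMb1 rose in both classes, by 0.73 (SE 0.04) in cDC1 and 0.62 (SE 0.07) in cDC2, and the difference between these was not called (0.12, SE 0.07, edgeR adjusted p = 0.428).

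H2-DMb2, the other H2-DM beta chain, set cDC2 apart from cDC1. It had 260 and 292 CPM in adult and 245 and 236 CPM in neonatal cDC2, but 91.7 and 101 CPM in adult and 39.6 and 34.3 CPM in neonatal cDC1. Every cDC2 pool lay above every cDC1 pool, and the class difference was 2.04 (SE 0.30, edgeR adjusted p = 0.015). In cDC1 H2-DMb2 was higher in adults by 1.44 (SE 0.11). In cDC2 the rise was 0.34 (SE 0.10, edgeR adjusted p = 0.00775), and this call was lost by DESeq2 (adjusted p = 0.219) and when any of adult pool 2, neonatal pool 1 or neonatal pool 2 was left out. Per H2-DMb1 UMI, there were 0.33 and 0.33 H2-DMb2 UMIs in adult cDC2 and 0.425 and 0.383 in neonatal cDC2. The same ratio was 0.092 and 0.097 in adult and 0.061 and 0.054 in neonatal cDC1. H2-DMb1 and H2-DMb2 are near copies, so reads that fit both could be lost or split in the authors' counting and the counts of each are uncertain.

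H2-DO, the inhibitor of H2-DM, was lower in level than H2-DM in each DC class. H2-Oa had 123 and 107 CPM in adult cDC1, against 43.8 and 47.7 CPM in neonatal cDC1 (log2 fold change 1.41, SE 0.10), and 203 and 191 CPM in adult cDC2, against 127 and 85.1 CPM in neonatal cDC2 (1.02, SE 0.14). H2-Ob had 176 and 167 CPM in adult cDC1, against 99.0 and 97.7 CPM in neonatal cDC1 (0.87, SE 0.08), and 83.8 and 98.3 CPM in adult cDC2, against 37.5 and 28.4 CPM in neonatal cDC2 (1.57, SE 0.18). Adult pools lay above neonatal pools in all 4 of these comparisons. The 2 chains thus had opposite leanings between the classes: H2-Oa was higher in cDC2 than in cDC1 (0.90, SE 0.12, edgeR adjusted p = 2.1e-04), and H2-Ob was lower in cDC2 (-1.32, SE 0.16, edgeR adjusted p = 3.7e-04). The summed H2-DO UMIs per H2-DM UMI were 0.111 and 0.102 in adult and 0.082 and 0.084 in neonatal cDC1, and 0.116 and 0.109 in adult and 0.075 and 0.052 in neonatal cDC2.

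With each cell thinned to 1500 UMIs, a UMI of H2-Oa was seen in 15% and 14.7% of adult cDC1, against 6.0% and 7.32% of neonatal cDC1. Unthinned, these shares were 49.1% and 42.1% in adults and 23.5% and 25.6% in neonates. In neutrophils, taken as background, H2-Oa was seen in 0 of 387 and 0 of 338 adult and 0 of 203 and 0 of 320 neonatal thinned cells. Thinning left out 5 and 9 adult and 0 and 3 neonatal cDC1, and 193 and 158 adult and 196 and 247 neonatal neutrophils. The median unthinned depth of cDC1 was 7763 and 7911 UMIs in adults and 6702 and 6850 UMIs in neonates, that of neutrophils 1648.5 and 1708.5 UMIs in adults and 1508 and 1585 UMIs in neonates.

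Ciita, the transactivator, was the one gene of the 10 that was lower in adult cDC1. It had 204 and 199 CPM in adult cDC1, against 292 and 297 CPM in neonatal cDC1 (log2 fold change -0.48, SE 0.06, edgeR adjusted p = 3.7e-07). In cDC2 it had 238 and 225 CPM in adults, against 237 and 247 CPM in neonates, and the difference was not called (0.08, SE 0.10, edgeR adjusted p = 0.664). The age difference was lower in cDC1 than in cDC2 by 0.56 (-0.56, SE 0.12, edgeR adjusted p = 1.3e-04). In thinned cells Ciita was seen in 26.8% and 25.9% of adult and 35.3% and 36.4% of neonatal cDC1, against 1.03% and 0.296% of adult and 0% and 0.625% of neonatal neutrophils. Unthinned shares in cDC1 were 71.1% and 72.1% in adults and 81.9% and 82.4% in neonates.

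The difference of Ciita in cDC1 was not called within either cluster of the class; cluster 1 alone was chosen after seeing the data. In cluster 0 it had 248 and 300 CPM in adults and 295 and 297 CPM in neonates (-0.10, edgeR adjusted p = 0.767). In cluster 1, led by Epcam and Cldn1, it had 195 and 183 CPM in adults and 119 and 312 CPM in neonates, from 16 cells in each neonatal pool (-0.14, edgeR adjusted p = 0.909). The other 9 genes were higher in adults in both clusters, though H2-Ob was not called in cluster 1: Cd74 differed by 0.46 in cluster 0 and 0.51 in cluster 1, H2-Eb1 by 0.51 and 0.61, and H2-Oa by 1.74 and 1.63. The summed cDC2 marker list was at 367 and 405 CPM in adult cDC1 and 90.2 and 86.4 CPM in neonatal cDC1, with 9 of 10 markers seen in each pool and Clec4a4 at 0. Its part in the results was not tested.

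Mature DCs had lower levels of all 10 genes than cDC1 of the same pools, by unequal amounts. In this class comparison 57.0% of all genes were called and 29.3% were lower. This fit, too, had no term for an age difference that differs between the classes. Its values average both ages and do not give the difference at each age, which was unequal for genes named further below. H2-DMb1 was lower by 4.43 on the log2 scale (-4.43, SE 0.21), H2-DMa by 4.0 (-4.0, SE 0.16), H2-Ob by 3.96 (-3.96, SE 0.20), H2-Oa by 1.62 (-1.62, SE 0.27) and Ciita by 2.73 (-2.73, SE 0.40). The I-A beta chain H2-Ab1 was lower by 2.72 (-2.72, SE 0.27), but H2-Aa, H2-Eb1 and Cd74 were lower by less, -1.41, -1.36 and -1.37. The highest edgeR adjusted p of the 10 was 0.00108, for H2-DMb2, which was also the gene that differed least (-1.0, SE 0.18). The alpha and beta chains of I-A were thus unequal in mature DCs, with 1.5 and 1.74 H2-Aa UMIs per H2-Ab1 UMI in adults and 3.13 and 3.46 in neonates.

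Between the ages, 8 of the 10 genes were called higher in adult mature DCs and none lower, against 15.9% of 7682 genes called higher and 15.2% lower, and the median of the 10 was 1.33 with that of all genes at 0.00183. H2-Ab1 had 2553 and 2174 CPM in adults, against 753 and 685 CPM in neonates (log2 fold change 1.82, SE 0.10). Cd74 had 11345 and 13291 CPM in adults, against 4641 and 4630 CPM in neonates (1.5, SE 0.09). Ciita had 69.6 and 45.8 CPM in adults, against 22.9 and 18.0 CPM in neonates (1.61, SE 0.25, edgeR adjusted p = 6.1e-06). No pool of 1 age overlapped the other for these genes. H2-Oa (34.1 and 11.8 CPM in adults, 20.2 and 15.8 CPM in neonates) and H2-Ob (13.6 and 8.9 CPM in adults, 4.9 and 5.3 CPM in neonates) were not called, with edgeR adjusted p of 0.329 and 0.0641. H2-DMa was called (0.81, SE 0.18), but the call was lost by DESeq2 (adjusted p = 0.0569), in thinned cells and without adult pool 1, and the value was -0.02 with doublets kept.

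The age difference of H2-Ab1 was larger in mature DCs than in cDC1 by 1.32 (SE 0.09, edgeR adjusted p = 8.0e-18), that of Cd74 by 0.85 and that of Ciita by 2.05 (SE 0.25, edgeR adjusted p = 5.8e-09). In all, 7 of the 10 genes differed in this way, against 18.2% of all genes, and 6 of them had the larger rise in mature DCs, against 7.91% of all genes. In thinned cells, and likewise without neonatal pool 2, 4 of the 10 were called. H2-Oa was the one gene called the other way (-0.96, SE 0.34, edgeR adjusted p = 0.0358), and with class II genes kept in the clustering its contrast was 0.32.

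Mature DCs fell into 3 clusters that the ages filled unequally. Cluster 9 held 5.96% of adult and 76.3% of neonatal mature DCs, cluster 14 held 46.3% of adult and 11.3% of neonatal ones, and cluster 16 held 47.7% and 12.4%. Fits within clusters 14 and 16 were added after seeing the data. Within cluster 16 the ages overlapped for H2-Ab1, with 2739 and 1949 CPM in adults and 2245 and 2202 CPM in neonates (-0.04, edgeR adjusted p = 0.913). Of the 7 genes tested there, none was called by edgeR and 1 had an unadjusted p under 0.05. Within cluster 14, 3 of 9 genes tested were called higher in adults: H2-Aa (0.43), H2-Eb1 (0.62) and Cd74 (0.49), the last with 10260 and 12995 CPM in adults and 9409 and 8350 CPM in neonates. Cluster 9 had low levels in neonates, 313 and 248 CPM of H2-Ab1 and 2702 and 2242 CPM of Cd74. Its adult cells, 5 and 8 in number, had 788 and 2256 CPM of H2-Ab1 and 6542 and 12454 CPM of Cd74, and were too few for a test. For H2-Ab1 the age difference was thus 1.82 in the whole class, 0.78 in cluster 14 (edgeR adjusted p = 0.168) and -0.04 in cluster 16, and these fits were not tested against each other.

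**Figure D3:**
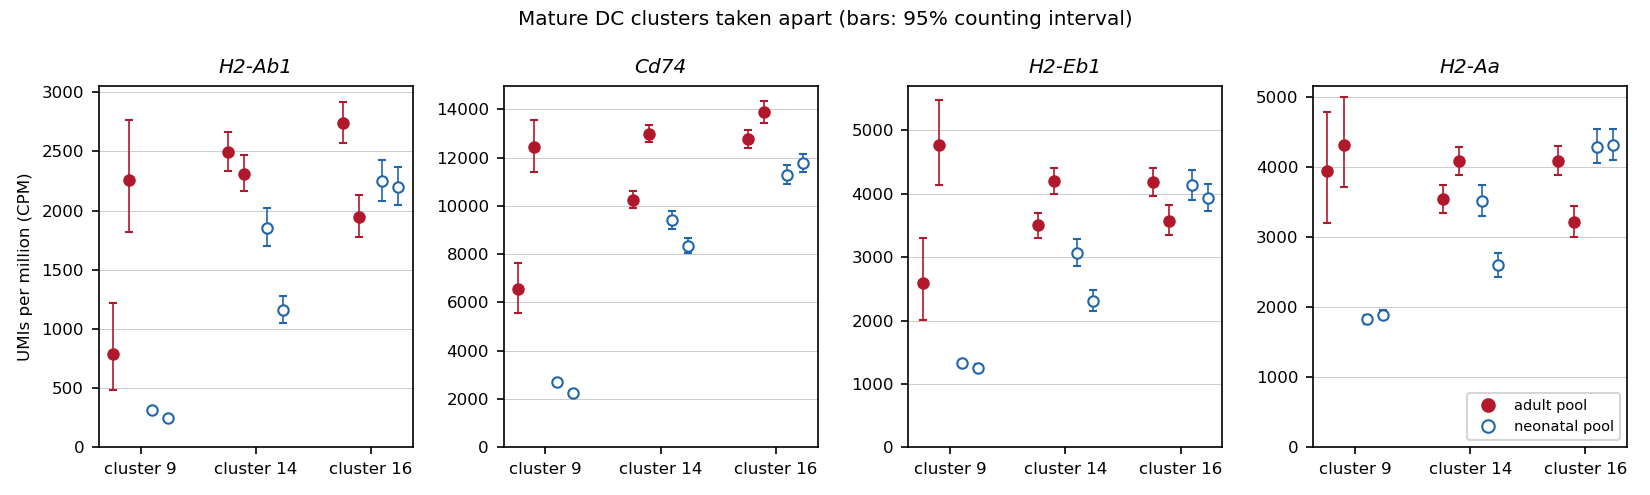
Levels (CPM) of 4 genes in the 3 mature DC clusters, with 1 point for each adult pool (filled) and neonatal pool (open) and bars for the 95% exact Poisson interval, which covers counting error only. In cluster 16 the adult and neonatal points of H2-Ab1 overlap (2739 and 1949 against 2245 and 2202 CPM), and in cluster 9 neonatal points are low (313 and 248 CPM).

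Cells with 1% or more of their UMIs from the 4 abundant genes, a limit set by hand, made up 42.6% and 50.5% of adult mature DCs and 22.3% and 21.3% of neonatal mature DCs. In cluster 16 alone they made up 40.3% and 57.1% in adults and 50.8% and 55.2% in neonates. The summed cDC1 marker list, 11 genes that include Clec9a and Xcr1, stood at 724 and 629 CPM in adult and 1628 and 1412 CPM in neonatal mature DCs, with at least 10 of 11 markers seen in each pool. The mature DC list stood at 11908 and 12568 CPM in adults and 13482 and 12800 CPM in neonates. Whether the makeup of the class by origin bears on its class II levels was not tested.

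In classical monocytes, 7 of the 10 genes passed the filter on low counts and all 7 were called higher in adults, where 10.6% of 8093 genes were; the median of the tested genes was 3.61. H2-Aa had 1134 and 1049 CPM in adults, against 91.5 and 73.8 CPM in neonates (log2 fold change 3.90, SE 0.08). Cd74 had 3501 and 3247 CPM in adults, against 322 and 331 CPM in neonates (3.56, SE 0.05). Ciita had 63.7 and 52.8 CPM in adults, against 1.6 and 4.8 CPM in neonates (4.37, SE 0.32, edgeR adjusted p = 4.2e-22). The neonatal cells held 1846619 and 1680799 UMIs of all genes. Their Ciita values thus rest on few UMIs, and the size of that difference is uncertain. H2-DMa had the smallest of these differences, with 470 and 449 CPM in adults, against 231 and 232 CPM in neonates (1.17, SE 0.08). Neonatal neutrophils had 14.4 and 23.8 CPM of H2-DMa, well under the neonatal monocyte level, whereas their 107 and 121 CPM of H2-Aa were above the monocyte level.

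Free RNA, as bounded from neutrophil transcripts in other classes, could supply at most 4.10% and 4.28% of the Cd74 level of adult classical monocytes. In neonatal classical monocytes the bound exceeded the whole level. The bound counts every UMI of these neutrophil transcripts in a class as free RNA, also any that the class made itself. It can thus overstate free RNA, and it cannot tell whether the Cd74 of neonatal classical monocytes is background. For adult and neonatal cDC1 and cDC2 the bound was at most 0.705% of the Cd74 level.

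Nonclassical monocytes gave a similar picture at lower levels: 7 of 8 genes tested were called higher in adults, against 10.2% of 8539 genes, and H2-Ob was not called (1.31, SE 0.59, edgeR adjusted p = 0.101). Cd74 had 2483 and 2832 CPM in adults, against 471 and 368 CPM in neonates (2.79, SE 0.07). H2-Eb1 had 318 and 541 CPM in adults, against 89.8 and 77.6 CPM in neonates (2.50, SE 0.33, edgeR adjusted p = 0.0247), a call that was lost without neonatal pool 1 (0.281) or neonatal pool 2 (0.334) and under 8 other settings. The adult and neonatal cells of both monocyte classes lay in different clusters: cluster 8 held 90.7% of adult classical monocytes and cluster 7 held 98.0% of neonatal ones, and cluster 21 held 97.3% of adult nonclassical monocytes and cluster 4 held 99.3% of neonatal ones. The free RNA bound for Cd74 was 7.66% and 6.0% of the level in adults, and 76.4% and 47.6% in neonates.

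In both monocyte classes a minority of adult cells carried most of the class II UMIs. Among adult classical monocytes, 33 of 206 and 33 of 193 cells had 1% or more of their UMIs from the 4 abundant genes, and these cells held 81.7% and 85.1% of the class II UMIs. Among neonatal classical monocytes 2 of 422 and 2 of 374 cells did, holding 22.4% and 16.1%. The remaining adult cells still had 0.137% and 0.104% of their UMIs from these genes, against 0.0429% and 0.0462% in the remaining neonatal cells. Among nonclassical monocytes, 29 of 280 and 28 of 302 adult cells passed the limit and held 65.1% and 73.7% of the class II UMIs, against 1 of 1065 and 1 of 1182 neonatal cells.

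Adult classical monocytes over the limit had a lower classical monocyte marker list, 3611 and 3466 CPM, than those under it, 7827 and 8154 CPM. Their nonclassical list was 2912 and 3654 CPM over the limit and 2558 and 2052 CPM under it, and their cDC2 list 971 and 849 CPM over and 862 and 837 CPM under. The 9-gene interstitial macrophage list stood at 4283 and 3188 CPM in adult and 2051 and 2379 CPM in neonatal classical monocytes. In nonclassical monocytes it stood at 5257 and 6229 CPM in adults and 1317 and 1431 CPM in neonates, with between 4 and 8 of its 9 markers seen in a pool, Folr2 at 0 in all, and Pf4 and Cd163 at 0 in both adult pools. The part of these markers in the age difference was not tested.

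**Figure D4:**
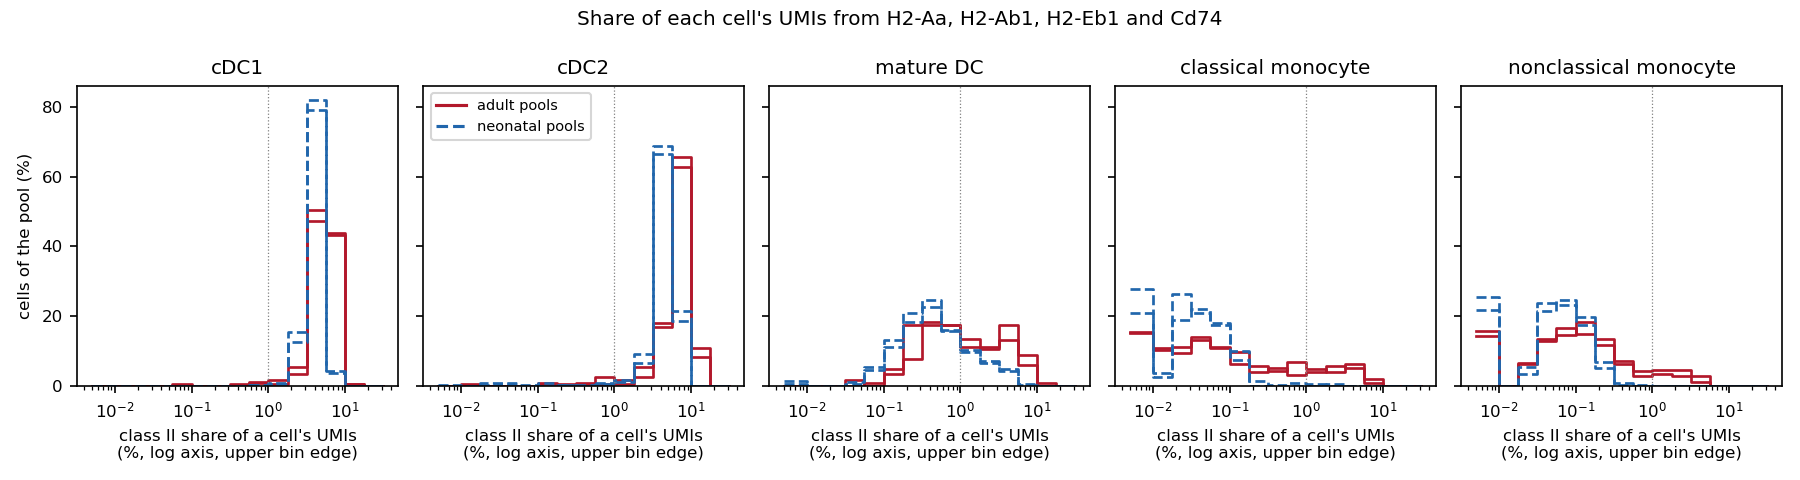
Distribution of cells by the percent of their UMIs from H2-Aa, H2-Ab1, H2-Eb1 and Cd74 (log axis; the leftmost step holds cells under 0.01%), with 1 line for each adult pool (solid) and each neonatal pool (dashed), as percent of the cells of the pool in that class. The dotted line marks 1%, which 16% and 17.1% of adult and 0.474% and 0.535% of neonatal classical monocytes reach.

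Other leukocytes had low levels. Of adult neutrophils 99.9% lay in cluster 24, and of neonatal ones 76.2% in cluster 2 and 23.0% in cluster 13. In neutrophils, 6 of the genes were tested and H2-Ab1 alone was called, lower in adults (100 and 95 CPM, against 145 and 120 CPM in neonates; log2 fold change -0.47, SE 0.16, edgeR adjusted p = 0.024), where 16.2% of 5781 genes were called lower; DESeq2 did not call it (adjusted p = 0.251). In T cells, Cd74 had 112 and 80.2 CPM in adults, against 480 and 498 CPM in neonates, and H2-Aa, H2-Ab1, H2-Eb1 and Cd74 were called lower in adults where 1.99% of 4725 genes were. In each neonatal pool 1 T cell, of 105 and of 124, held 62.2% and 68.0% of the class II UMIs, and these cells had 11973 and 10968 UMIs against medians of 3199 and 3335 in the rest. The remaining T cells had 0.0258% and 0.0195% of their UMIs from the 4 genes in adults and 0.0371% and 0.0328% in neonates. With the larger neonatal T cell cluster taken alone, Cd74 differed by -0.60 and was not called (edgeR adjusted p = 0.246).

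B cells, which present antigen to CD4 T cells, were too few for a test (5 and 16 adult and 22 and 9 neonatal cells). They had 7533 and 9687 CPM of Cd74 in adults and 3760 and 4998 CPM in neonates, between the levels of mature DCs and classical monocytes in adults. Their H2-DM beta chain was mostly H2-DMb2, with 342 and 361 CPM in adults and 89.7 and 101 CPM in neonates, against 0 and 41.3 CPM of H2-DMb1 in adults and 12 and 40.3 CPM in neonates. That order is the reverse of the one in cDC1 and cDC2 above, and was not tested.

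Basophils or mast cells, a class of 35 and 25 adult and 84 and 113 neonatal cells, also had H2-Oa. It was at 81.7 and 44.1 CPM in adults and 121 and 129 CPM in neonates, where neutrophils had 0 and 0 CPM in adults and 3.92 and 0 CPM in neonates. H2-Aa in the same cells was at 36.3 and 221 CPM in adults and 85.0 and 70.2 CPM in neonates, and in neutrophils at 109 and 115 CPM in adults and 107 and 121 CPM in neonates. H2-Ob, not tested there, was at 63.5 and 44.1 CPM in adults and 8.09 and 17.6 CPM in neonates. None of the 5 genes tested differed between ages there by edgeR or DESeq2, where 7.24% of 2582 genes were called, and 2 of them had an unadjusted p under 0.05.

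The further gene lists and interval genes below were compared in whole classes and not looked at within clusters. In cDC1 2663 of 9954 genes were called in the whole class and 424 of 9444 in cluster 0 alone. In mature DCs 2383 of 7682 were called in the whole class, 210 of 3958 in cluster 14 and 570 of 3675 in cluster 16. The clusters taken alone also held fewer cells. Among endosomal proteases, their inhibitor and the thiol reductase of the class II route, more members were called higher than lower in adult DCs. In cDC1 10 of 11 tested were higher in adults, against 14.9% of all genes, and none lower, with a list median of 0.44. In cDC2 6 of 11 were higher, against 10.3% of all genes, and the other 5, Ifi30 and Ctsc among them, were not called (median 0.35). In mature DCs 6 of 11 were higher, against 15.9% of all genes, and Ctsb and Sppl2a were lower (median 0.51). Ctss, cathepsin S, which cuts the invariant chain, had 511 and 481 CPM in adult and 378 and 389 CPM in neonatal cDC1 (log2 fold change 0.44, SE 0.05). In mature DCs Ctss had 762 and 734 CPM in adults and 433 and 491 CPM in neonates (0.80, SE 0.10). Ctsc, a dipeptidase that activates other proteases, had 146 and 137 CPM in adult and 63.2 and 64.4 CPM in neonatal cDC1 (1.22, SE 0.09). Ifi30, the reductase GILT, rose by 0.75 (SE 0.09) in mature DCs, and Cst3, cystatin C, an inhibitor of cathepsins, by 0.28 (SE 0.03) in cDC2 and 0.70 (SE 0.09) in mature DCs.

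Few factors that bind the X and Y boxes differed between the ages. Of the 9 tested in cDC1 none was called by edgeR or DESeq2 (1 had an unadjusted p under 0.05), and of the 8 tested in cDC2 none was called by either tool (1 under 0.05 unadjusted). In mature DCs edgeR called 2 of 9 lower in adults and none higher, where 15.2% of all genes were lower, and DESeq2 called 1. The 2 were Nfya, a subunit of NF-Y, with 51.8 and 41.4 CPM in adults and 111 and 90.3 CPM in neonates (-1.0, SE 0.19), and Creb1 with 73.6 and 63.5 CPM in adults and 120 and 114 CPM in neonates (-0.66, SE 0.16).

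Upstream of Ciita the list held members that moved both ways. In cDC1 5 of 14 tested were higher in adults and 2 lower, where 14.9% and 11.8% of all genes were. In cDC2 4 of 14 were higher and 1 lower, where 10.3% and 6.80% of all genes were, and in mature DCs 4 of 15 were higher and 2 lower, where 15.9% and 15.2% were. The shares called lower were thus near those of all genes. Irf8, a DC transcription factor, had 1625 and 1544 CPM in adult and 2252 and 2318 CPM in neonatal cDC1 (-0.46, SE 0.04). Irf1, which is induced by interferon and drives Ciita, had 143 and 127 CPM in adult and 670 and 657 CPM in neonatal mature DCs (-2.19, SE 0.12), while Ciita in those cells was higher in adults. Ifngr1, a chain of the interferon-gamma receptor, rose by 0.39 (SE 0.05) in cDC1 and 0.53 (SE 0.09) in cDC2. Socs1, a feedback inhibitor of interferon signals, was low in cDC1, at 6.61 and 3.39 CPM in adults and 15 and 16 CPM in neonates (-1.49, SE 0.29).

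Genes of class II surface turnover and tetraspanins were higher in adults in 4 of 9 tested in cDC1, 4 of 8 in cDC2 and 4 of 7 in mature DCs, against 14.9%, 10.3% and 15.9% of all genes in these classes, and 1 was lower in mature DCs. Cd81, a tetraspanin, had 467 and 416 CPM in adult and 195 and 196 CPM in neonatal cDC1 (1.25, SE 0.06) and 121 and 163 CPM in adult and 26.1 and 31.5 CPM in neonatal cDC2 (2.46, SE 0.17). In mature DCs it turned round, with 210 and 193 CPM in adults and 470 and 418 CPM in neonates (-1.03, SE 0.12). Cd83, which shields class II from the ubiquitin ligase March1, rose by 0.61 (SE 0.08) in cDC1 and 1.00 (SE 0.17) in cDC2, and March1 itself by 0.54 (SE 0.14) in cDC2.

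Inside the class II interval on chromosome 17 lie 4 genes of class I presentation and Brd2, which are neighbours of the class II genes but do not encode class II chains. In cDC1 taken as a whole class, all 4 class I genes were lower in adults while the 8 class II members around them were higher. Of all genes there, 11.8% were lower and 14.9% higher. Psmb9, an immunoproteasome subunit, had 545 and 507 CPM in adult and 700 and 686 CPM in neonatal cDC1 (-0.33, SE 0.05), and Psmb8, another, differed by -0.18 (SE 0.04). Tap1 and Tap2, the peptide transporter, differed by -0.27 (SE 0.07) and -0.35 (SE 0.08). In cDC2 the immunoproteasome genes Psmb8 (0.23) and Psmb9 (0.53) were higher in adults, and in mature DCs Psmb8 was higher (0.40) but Tap1 (-0.99, SE 0.11) and Tap2 (-0.62, SE 0.14) were lower. Brd2, a chromatin reader, differed by 0.23 in cDC1 and -0.42 in mature DCs, both called. Its annotated span overlaps that of H2-DMa on the other strand.

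At the far end of the interval lies H2-Eb2 (34325665-34341412, plus strand), a near copy of H2-Eb1 whose counts are uncertain for that reason. Its level was highest in mature DCs, at 187 and 192 CPM in adults and 86.7 and 74.1 CPM in neonates (log2 fold change 1.34, SE 0.14). In cDC1 it had only 5.37 and 2.82 CPM in adults and 1.65 and 0.778 CPM in neonates (1.84, SE 0.57), and in cDC2 16.4 and 28.1 CPM in adults and 2.53 and 3.78 CPM in neonates (2.96, SE 0.44). H2-Eb2 thus had its highest level in the class where H2-Eb1 was lowest of the 3, with 3798 and 4003 CPM of H2-Eb1 in adult and 1909 and 1828 CPM in neonatal mature DCs.

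**Figure D5:**
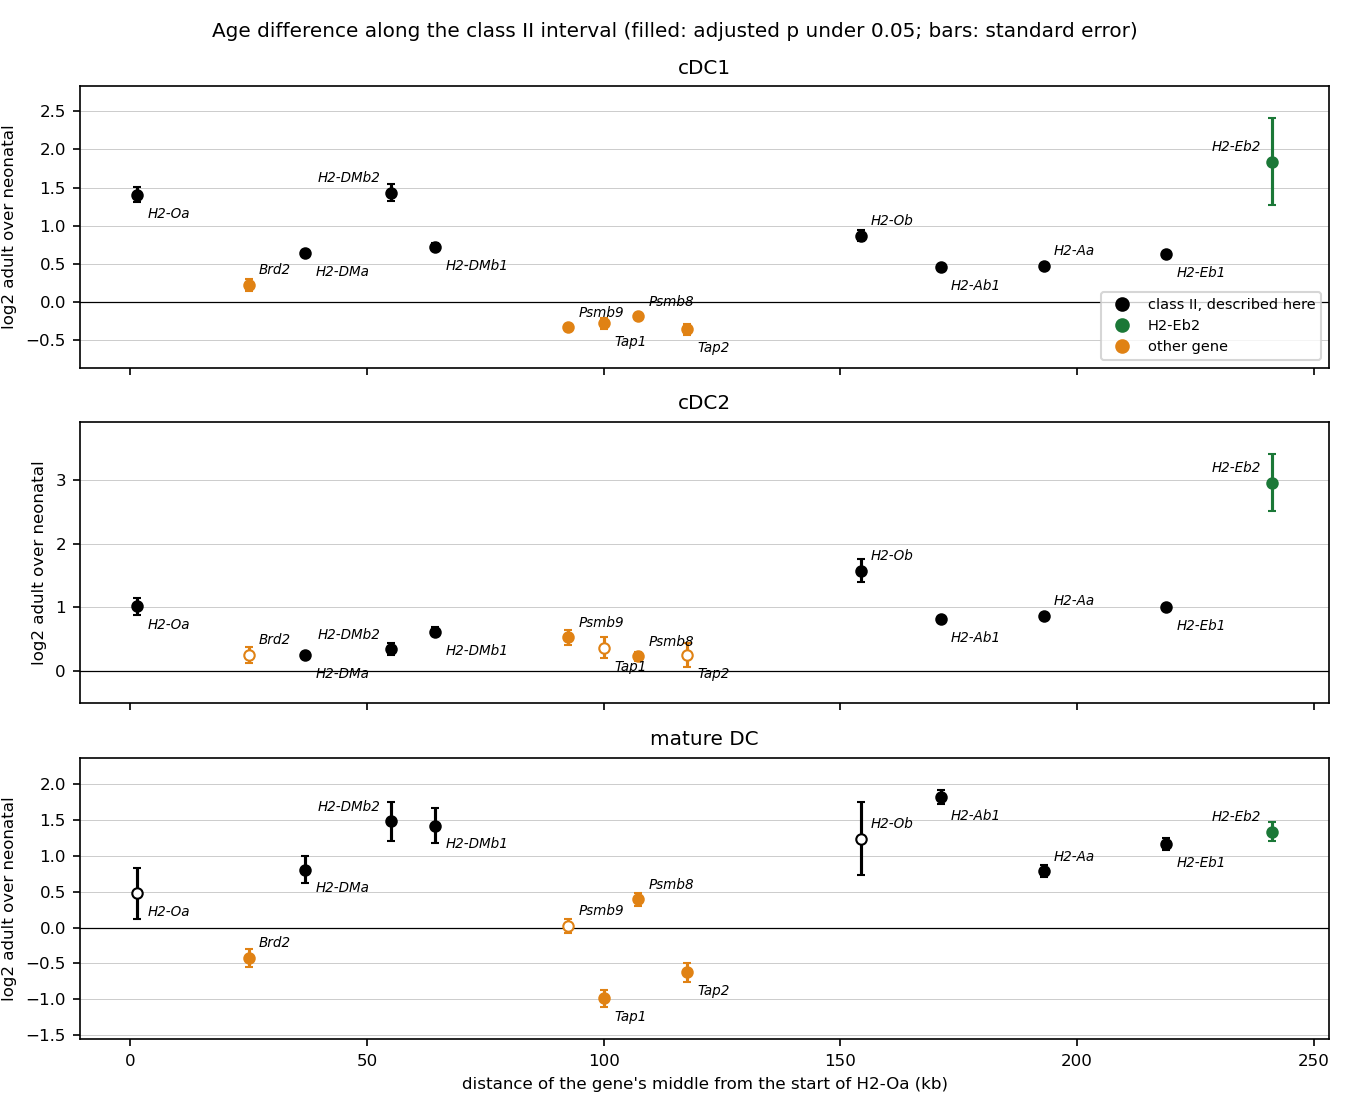
Age difference (log2 adult over neonatal, vertical axis with a separate scale in each panel) of the protein coding genes of the class II interval, placed by the distance of the middle of each gene from the start of H2-Oa in kb. In cDC1 the 4 class I genes near the middle lie between -0.35 and -0.18, and the class II genes on both sides lie between 0.46 and 1.84.

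Over 32 sums of 8 classes in 4 pools, the genes whose log2 level followed the mean of the 4 abundant class II genes most closely, among 6156 genes reaching 50 CPM in a sum, were Ccnd1 (Pearson r = 0.927), Rnf150 (0.921), Rbpj (0.910), Celf4 (0.895), Snx3 (0.882), Trerf1 (0.878), Atox1 (0.878) and Cst3 (0.871). These values describe 32 sums that share pools and are mostly set by the contrast of DCs with other classes. Ccnd1, cyclin D1, averaged 287 CPM in cDC1, 475 CPM in cDC2 and 77.6 CPM in mature DCs, against 3.34 CPM in classical monocytes and 7.08 CPM in neutrophils. For Ciita the closest were Rnf150 (0.901), Ccnd1 (0.891) and Atox1 (0.891). The H2-DO chains had other neighbours: Dpp4 (0.864), Fads1 (0.862) and Ptms (0.851) for H2-Oa, and Ptms (0.831), Ppp1r11 (0.820) and Epcam (0.815) for H2-Ob. Fads1, a fatty acid desaturase, averaged 67.1 CPM in basophils or mast cells and 19.4 CPM in cDC1, 2 of the classes in which H2-Oa was above the neutrophil level.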

How the data were processed

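The deposited matrix holds raw UMI counts per gene and cell barcode, made by the authors with Cell Ranger 6.1.2 on mm10 per the submitters' processing notes, which also name Seurat 4.2.0. Barcode suffixes gave the pools, per the series' design text. A barcode needed 500 genes and 1000 UMIs, no more than 10% of them mitochondrial, and predicted doublets were removed (21 and 14 adult, 101 and 87 neonatal). They were clustered (scanpy 1.11.5, 30 components, resolution 1) with class II genes left out of the variable genes. A cluster was named from its best-scoring list if at least 3 of the list's markers were detected and the score passed a limit. Its 10 leading genes also had to hold no more markers of another list than of its own. Cluster 5 (5 and 0 adult, 361 and 338 neonatal cells) was left unnamed by this rule and was not tested. With class II genes kept in clustering, a cluster of 2 and 0 adult and 322 and 316 neonatal cells was named nonclassical monocyte. Both had Trem2 and Plac8 among their leading genes. UMIs were summed per class and pool where every pool had 20 cells, and tested with edgeR 4.0.16 (filterByExpr, TMM, robust quasi-likelihood) in R 4.3.3; contrasts of classes had the pool as a block, and DESeq2 1.42.0 was an alternative. Gene UMIs totalled 8993471 and 8172362 in the adult pools and 20346024 and 19549992 in the neonatal pools. Intervals cover counting error only, and the free RNA bounds are single values without an interval. The test was also run on counts simulated with spreads estimated from these same pools. Such a run cannot check the spread between mice, sexes or loading channels, and its outcome is not given here. Genes named are the 10 members, protein coding neighbours in the interval, up to 4 genes of each list with the smallest p in each DC class, and the closest genes by Pearson r; H2-Eb2 and Brd2 fall under these rules. The members and lists were chosen with earlier results of these data known.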

Additional observations from a re-analysis of the deposited data

Results flagged for a closer look

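Age differences that themselves differed between DC classes are listed here. With cDC1 set against cDC2 (log2 adult over neonatal in cDC1 minus that in cDC2, edgeR's quasi-likelihood interaction test), H2-Aa was at -0.39, H2-Ab1 at -0.35, H2-Eb1 at -0.37, Cd74 at -0.0864, H2-DMa at 0.40, H2-DMb2 at 1.11, H2-Ob at -0.71 and Ciita at -0.56. With mature DCs set against cDC1 (mature DC minus cDC1), H2-Aa was at 0.27, H2-Ab1 at 1.32, H2-Eb1 at 0.49, Cd74 at 0.85, H2-DMb1 at 0.65, H2-Oa at -0.96 and Ciita at 2.05.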

How the results depend on the processing

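Of 149 recomputed counts, 138 stayed within 1.5 times the reported one. In mature DCs the 8 called genes became 5 with doublets kept, 3 in cluster 14 alone and 0 in cluster 16 alone, the cluster fits being chosen after seeing the data. In nonclassical monocytes 7 became 4 with doublets kept and 4 with free RNA subtracted. In the other classes 5 became 2 by DESeq2, 8 with doublets kept and 2 in thinned cells. The contrast of ages between cDC1 and cDC2 gave 5 in place of 8 in thinned cells, and that between mature DCs and cDC1 gave 4 in place of 7. Leaving out 1 pool gave 10 to 10 called genes in cDC1, 8 to 9 in cDC2, 7 to 9 in mature DCs, 7 to 7 in classical and 6 to 7 in nonclassical monocytes, 4 to 7 in other classes, 6 to 8 and 4 to 6 in the 2 contrasts of ages, 10 to 10 for mature DCs against cDC1 and 5 to 5 for cDC2 against cDC1. The lone pool left was then assumed to vary like the others.

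Reversed values in mature DCs were, in cluster 16 alone, H2-Aa -0.35, H2-Ab1 -0.0363, H2-Eb1 -0.17, H2-DMa -0.38 and Ciita -0.25; for H2-DMa -0.39 in cluster 14 alone and -0.0214 with doublets kept; and for H2-Oa -0.49 without adult pool 1 (1.02 without adult pool 2). H2-DMb2 in cDC2 was -0.0497 against the Y-linked cells of neonatal pool 2, and the H2-Oa contrast of mature DCs with cDC1 was 0.32 with class II genes kept in clustering. The cause was not tested. Fits with the pool number as a replicate block gave 10 called genes in cDC1 and changed no count by over 1.5 times; the numbers only name the pools. Adding proliferating cells was run for classes with such cells only, and the largest neonatal cluster alone was not run where an adult pool had under 20 cells in it. Depth limits Ciita, H2-Oa and H2-Ob in mature DCs and monocytes.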

Other observations

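Interstitial macrophages, tissue cells that present antigen, were few (1 and 4 adult, 29 and 31 neonatal cells) and their class II transcripts were unevenly spread. Their Cd74 was at 15182 and 18751 CPM in adults and 3067 and 4731 CPM in neonates, and their H2-Aa at 8789 and 6318 CPM in adults and 869 and 1045 CPM in neonates. In the neonatal pools 4 of 29 and 6 of 31 cells held 72.7% and 73.9% of the class II UMIs. Alveolar macrophages, found in the neonatal pools alone (55 and 41 cells), had 1071 and 913 CPM of Cd74 and 303 and 238 CPM of H2-DMa. There 3 of 55 and 2 of 41 cells, with median depths of 13045 and 11883.5 UMIs against 6667 and 6437 in the rest, held 89.5% and 87.5% of the class II UMIs, and the rest had 0.0248% and 0.0240% of their UMIs from these genes, under the neutrophil level. None of these classes was tested.

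Proliferating cDC1, 4 and 7 adult and 59 and 48 neonatal cells, were also counted apart. Their H2-Eb1 was at 6276 and 6899 CPM in adults and 4977 and 4751 CPM in neonates, lower in each pool than in other cDC1, with no test. Their Cd74 was at 25630 and 23750 CPM in adults and 15026 and 14170 CPM in neonates, and their H2-Ab1 at 10150 and 8627 CPM in adults and 7800 and 7168 CPM in neonates. Ciita was at 18.2 and 191 CPM in the adult cells and 211 and 178 CPM in the neonatal cells, a spread that the small adult cell numbers allow.

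Innate lymphoid cells, 19 and 15 adult and 50 and 44 neonatal cells, had H2-Oa at 29.6 and 33.4 CPM in adults and 31.8 and 72.8 CPM in neonates. The adult cells held only 67558 and 59857 UMIs of all genes. Their H2-Oa values thus rest on very few UMIs, and the class was not tested.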
